A study of Mus musculus with 4 samples.

Results

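Fibroblast and tenocyte-like cells were 72 of the 9611 cells kept in 4 libraries of sorted muscle cells. They were chosen by the transcripts they carried. A cell had to hold at least 5000 UMIs (unique molecular identifiers, 1 per captured RNA molecule), at least 1000 detected genes and at most 10% mitochondrial UMIs, then at least 2 UMIs of at least 3 of the 7 marker genes Dcn, Lum, Aspn, Thbs4, Tnmd, Mfap5 and Angptl1, and no UMI of the macrophage-enriched gene Cd74. The rule left 13 members in Pax7Cre replicate 1, 11 in Pax7Cre replicate 2, 14 in miR-501KO replicate 1 and 34 in miR-501KO replicate 2.

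The cells came from the tibialis anterior muscles of 12-week-old mice, 6 days after cardiotoxin, a venom peptide that lyses the fibres and sets off regeneration, was injected. All mice carried Pax7Cre, a Cre recombinase driven by the promoter of Pax7, the transcription factor of muscle stem cells. The 2 control libraries (Pax7Cre) carried Cre alone, and the 2 miR-501KO libraries came from Pax7Cre mice whose single X-linked miR-501 allele was floxed (miR-501fl/Y). Each library pooled 3 mice, and replicates 1 and 2 were separate sequencing runs of both genotypes. Because Pax7 marks the myogenic lineage, the Cre driver was not directed at fibroblasts, and whether the allele was recombined in these 72 cells cannot be read from their RNA. Mature miRNAs are not captured by a poly(A) library either. The gate kept cells with α7 integrin on the surface and without CD45, CD31 or Sca1, so the members are the few matrix-producing cells that passed a sort for myogenic progenitors and are not a sample of all fibroblasts of the muscle.

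Fibroblasts of muscle lie between the fibres and secrete the collagens, proteoglycans and glycoproteins of the connective tissue. After injury they expand for a time, lay down provisional matrix and release factors that act on muscle stem cells. Tenocytes, the cells of tendon, build parallel collagen fibrils under the control of the transcription factor scleraxis (Scx), and tenomodulin (Tnmd), a membrane glycoprotein, is among their best known late markers. Both cell types share much of their matrix programme, so they are separated by few genes.

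The miRNA removed in the mutant mice is shown for orientation, with its seed (bases 2 to 8 from the 5′ end, the stretch that pairs with target RNAs) in capitals. Both mature strands are from RefSeq on GRCm38.p6, minus strand, the 3p strand at chrX:7241270-7241291 and the 5p strand at chrX:7241307-7241328, and the miRNA lies within the gene Clcn5.
mmu-miR-501-3p: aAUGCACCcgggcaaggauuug
mmu-miR-501-5p: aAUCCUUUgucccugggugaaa
The host gene Clcn5, which encodes a chloride and proton exchanger of endosomes, was read in the members at 46.5 and 91.7 CPM (UMIs per 1000000 UMIs of the summed cells) in Pax7Cre and at 74.3 and 66.5 CPM in miR-501KO. The groups overlapped, and the members sat below the other cells of their library in all 4 libraries.

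The members were rare in every library. They made up 0.421% of the kept cells of Pax7Cre replicate 1 (95% Wilson interval 0.246 to 0.719), 0.636% of Pax7Cre replicate 2 (0.356 to 1.14), 0.514% of miR-501KO replicate 1 (0.307 to 0.862) and 1.64% of miR-501KO replicate 2 (1.18 to 2.28). These intervals cover counting error only. The mean share was 0.529 ± 0.107% in Pax7Cre and 1.08 ± 0.563% in miR-501KO (mean ± SEM, n = 2 libraries per genotype), and the difference was not larger than the spread between libraries (exact permutation test, two-sided p = 0.667, where 0.33 is the smallest p that 2 against 2 allows). Within runs the difference was 0.0931 percentage points in run 1 and 1.0 in run 2, so it came almost wholly from miR-501KO replicate 2. Over the 3 shares tested here the adjusted p was 1 for each.

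**Figure D1:**
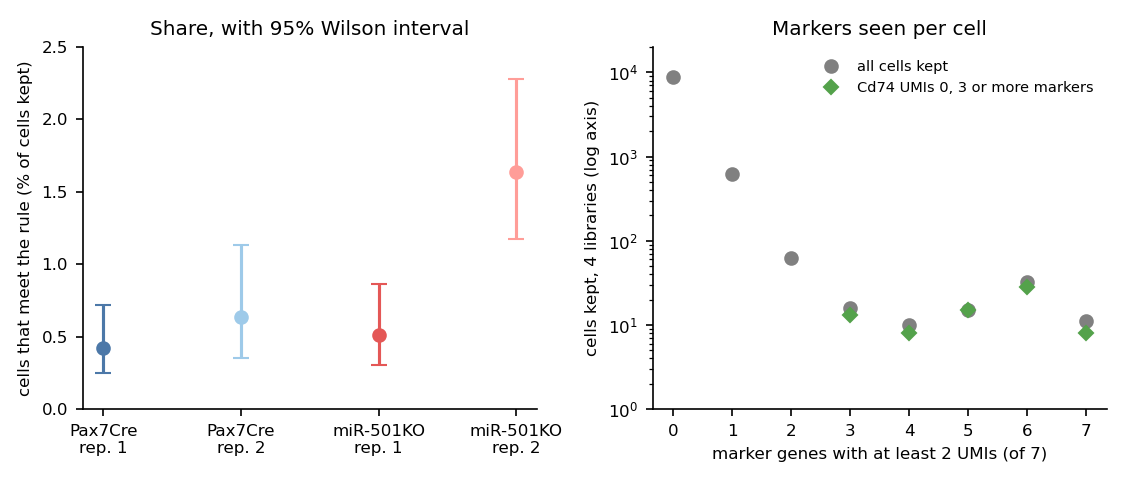
The left panel plots the members as a percentage of the cells kept in each library, with the 95% Wilson interval, and the right panel the number of kept cells (log axis) by how many of the 7 markers held at least 2 UMIs, with green diamonds for cells that also had no Cd74 UMI. Of the 4 libraries miR-501KO replicate 2 had the highest share, 1.64%, and most kept cells (8849) had none of the 7 markers.

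The marker counts that chose the members had a second mode at 6 markers. Of the kept cells, 8849 had none of the 7 markers at 2 UMIs, 616 had 1, 62 had 2, and 16, 10, 15, 32 and 11 had 3, 4, 5, 6 and 7. Just outside the threshold, the 50 cells with 2 markers and no Cd74 UMI held a median of 11 UMIs of the 7 genes together. Just inside, the 13 members with 3 markers held a median of 29, against 164 over all members. A further 12 cells met the marker condition and were lost to Cd74.

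The members were well sequenced, with a median of 39775, 45972, 40280 and 30145 UMIs per cell in the library order above and a range of 5105 to 106762. No member barcode was found in another library, and 27 kept barcodes were shared between libraries. No doublet caller was run. A cell that also passed the markers of a second cell type was kept and counted: 14 members passed the myogenic markers, 8 the mural markers (pericytes and smooth muscle), 1 the macrophage markers and 0 the Schwann cell, endothelial, neutrophil or erythroid markers. The 14 were unevenly spread, with 2 in Pax7Cre replicate 1, 0 in Pax7Cre replicate 2, 3 in miR-501KO replicate 1 and 9 in miR-501KO replicate 2. Summed over the whole list of 7 myogenic markers, the members held 108 to 208 CPM in Pax7Cre and 312 to 319 CPM in miR-501KO. The myogenic cells themselves held 2310 to 2603 CPM, and none of the 7 was at 0 in the members. Most of the Pax7Cre sums came from 1 marker, Chodl, at 121 and 79.5 CPM in Pax7Cre members and 25.3 and 28.0 CPM in miR-501KO members. In myogenic cells Chodl was at 38.8 to 72.1 CPM, so these sums understate how far the other markers differed between the genotypes.

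In the summed members of each library the label held for fibroblasts, though not for every cell alike, and tendon genes were seen in fewer of the cells. The genes named in this paragraph were not used by the rule, but a cluster of cells set against the rest is a description and no test. Pdgfra, the growth factor receptor that defines fibro/adipogenic progenitors, was at 67.1, 120, 133 and 75.2 CPM and at 1.04 CPM or less in all other cells. Dpt, encoding the fibroblast matrix protein dermatopontin, was at 239 to 544 CPM against 9.10 to 17.9 CPM. Pecam1 and Ptprc, which encode CD31 and CD45, were at 0 UMIs in every member. Itga7, which encodes the integrin used for the sort, was at 17.2 to 43.9 CPM and below the other cells in all 4 libraries, and Ly6a, which encodes the Sca1 used for exclusion, was at 22.2 to 124 CPM. Thus the RNA of the members carried little of the gate's positive gene and some of its negative gene.

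Scx was less particular to the members. After every cell had been thinned to 5000 UMIs, Scx RNA was seen in 20 of 72 members (27.8%, Wilson interval 18.8 to 39.0) and in 131 of 800 myogenic cells (16.4%), but in 2.54% of macrophages, 0.840% of mural cells and 1.22% of Schwann cells. Macrophages were assumed to lack the gene and are shallower (median 18070 UMIs before thinning), and the level of free RNA was not measured. Mkx, a second transcription factor of tendon, was seen in 2 members. Tnmd itself, a gene of the rule, was seen in 23 of 72 members and Kera, encoding the proteoglycan keratocan, in 8 of 72. Neither was seen in more than 1% of any other class. Cells that passed the marker genes of the rule were left out of those classes. For Tnmd the contrast was therefore partly set by the choice of cells. Chad and Epyc, which encode 2 further proteoglycans of tendon and cartilage, were at 0 UMIs. Of 13 tenocyte genes with a mean of at least 50 CPM in the members, 10 were more than 2-fold above the other cells in all 4 libraries. Among all genes at that level 11.6% were. The tenocyte list holds 2 genes of the rule, and 1 of the 13 was below the other cells in all 4 libraries.

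Fibrillar collagen transcripts were abundant in the members. A UMI is counted once per molecule at the 3′ end, so these levels need no division by gene length. Col1a1, the α1 chain of collagen I, was at 14272 and 16335 CPM in Pax7Cre and 16862 and 13657 CPM in miR-501KO, against 602 to 765 CPM in the other cells. Col1a2, its partner chain, was at 9745 to 14452 CPM, and Col3a1, the chain of collagen III of early scar matrix, at 8486 to 12545 CPM. The genotypes overlapped for Col1a1 and Col3a1 and did not overlap for Col1a2, which was lower in miR-501KO and did not pass the test below.

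Of 12 genes for fibrillar collagens and collagens bound to the fibril surface, 10 reached a mean of 50 CPM in the members, and all of those 10 were more than 2-fold above the other cells in all 4 libraries. The same count over all genes with at least 50 CPM was 346 of 2983 (11.6%). Of the 9611 kept cells 7663 were of the myogenic class, so a lead over the other cells is mostly a lead over myogenic cells. The list counts were not made against mural or Schwann cells alone. Genes that fold, trim and cross-link collagen were abundant beside the chains. Of 18 at that level, 18 were above the other cells and 15 more than 2-fold, with Serpinh1, the collagen chaperone, at 1806 to 2892 CPM, Pcolce, which speeds removal of the C-terminal propeptide, at 535 to 652 CPM, and Lox, the lysyl oxidase that cross-links the fibril, at 336 to 509 CPM.

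Proteoglycans and glycoproteins of the fibril surface came next. All 7 small leucine-rich proteoglycans with at least 50 CPM were more than 2-fold above the other cells. Of these, 3 (Dcn, Lum and Aspn) are genes of the rule, so their lead follows from the choice of cells. The list was led by Bgn (biglycan) at 2645 to 3646 CPM and Dcn (decorin) at 1923 to 3358 CPM. Ogn (osteoglycin) was at 346 and 893 CPM in Pax7Cre and 1168 and 995 CPM in miR-501KO. Among 17 matricellular genes at that level, which encode matrix proteins that signal to cells, 13 were more than 2-fold above. This list holds 2 genes of the rule. Sparc, which binds collagen during secretion, was at 7655 to 10332 CPM, Postn (periostin) at 3777 to 5557 CPM and Fn1 (fibronectin) at 2232 to 4575 CPM. Of 14 genes for elastic fibres and microfibrils, 1 of them a gene of the rule, 12 were more than 2-fold above. Fbn1 (fibrillin 1) was at 375 to 740 CPM.

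The members also carried RNA for signals that act on muscle stem cells. Of 16 such secreted factors with at least 50 CPM, 12 were more than 2-fold above the other cells. Igf1, the growth factor that drives muscle growth, was at 244 and 776 CPM in Pax7Cre and 542 and 419 CPM in miR-501KO, against 46.0 to 68.0 CPM in the other cells. Igfbp7 and Igfbp4, which encode binding proteins of that family, were at 1152 to 2450 CPM and 674 to 1934 CPM. Cxcl1, a chemokine that draws neutrophils, was at 544 to 1189 CPM, and Ccl2, which draws monocytes, at 190 to 797 CPM. Mural cells carried as much or more of both chemokines, on average 1299 and 1388 CPM.

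The TGF-β pathway, which drives matrix production in fibroblasts, was measured from ligand to target. Of 4 ligands with at least 50 CPM, Tgfb3 (65.4 to 143 CPM) and Inhba, encoding an activin subunit (25.3 to 99.8 CPM), were more than 2-fold above the other cells in all 4 libraries, and Tgfb1 and Tgfb2 were not. No receptor was more than 2-fold above, and Tgfbr2 was at 92.9 to 196 CPM. Of the antagonists, Fstl1, encoding a follistatin-like glycoprotein, was the most abundant at 1170 to 2374 CPM. Of 5 targets, Tgfbi, encoding a collagen-binding matrix protein, was the one more than 2-fold above. Gdf5, Gdf6, Bmp7 and Grem1 were at 0 UMIs in all members.

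Immediate early genes, which respond within minutes to growth factors and to tissue handling, were high. Of 16, 13 were above the other cells in all 4 libraries, where 36.2% of all genes with at least 50 CPM were, with Fos at 2124 to 3485 CPM and Jun at 1398 to 2150 CPM. Cell cycle genes went the other way: none of 8 with at least 50 CPM was above and 6 were below in all 4 libraries, where 30.3% of all genes at that level were below. No muscle differentiation gene reached a mean of 50 CPM, and Acta1 (skeletal α-actin) was at 25.3 to 59.8 CPM against an average of 1107 CPM in myogenic cells. Acta2 (smooth muscle α-actin), the classic gene of contractile myofibroblasts, was at 518 to 2118 CPM and not above the other cells in any library, whereas Cthrc1, encoding a secreted collagen triple helix protein of activated fibroblasts, was at 794 to 1131 CPM against 7.08 to 16.1 CPM.

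By size of lead, ranked on the lowest of the 4 log2 ratios of member to other CPM, the first 25 genes held all 7 genes of the rule and 18 that it had not used. Some were in most members. Ctsk, the collagen-degrading protease cathepsin K, had UMIs in 67 members and Cthrc1 in 62, and Thbs2, encoding a thrombospondin that limits vessel growth, in 65. Others were carried by few cells. Ptx4, encoding a pentraxin, was first in the ranking with UMIs in 10 members, Kera had UMIs in 11, Mmp13, a collagenase, in 10 and Prg4, the joint lubricant lubricin, in 16. Aspn was the 1 gene of the rule with a high level in another class, 869 CPM in mural cells on average, and Col11a1 reached 149 CPM in Schwann cells. Most members thus shared a core of matrix genes and differed in the sparse ones.

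**Figure D2:**
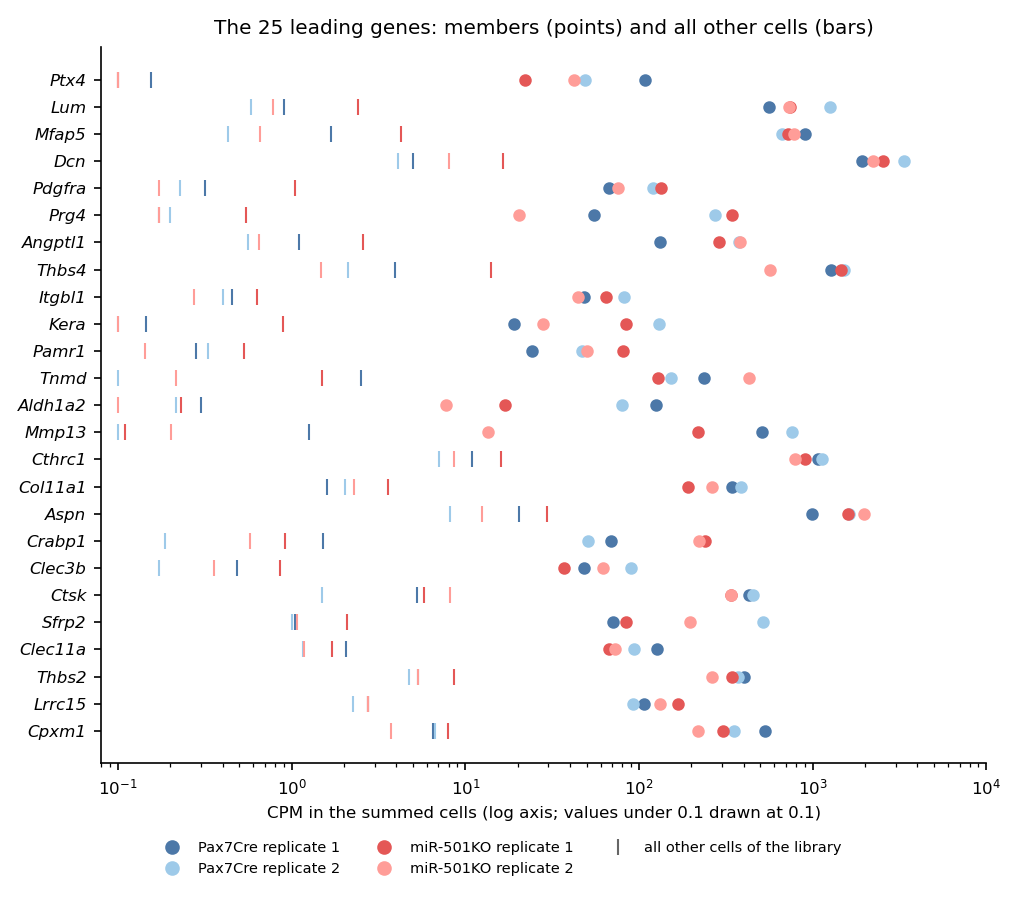
Points give the CPM (log axis) of the 25 leading genes in the summed members of each library, and short vertical bars the CPM in all other cells of that library. For every gene the 4 member values lie above the 4 values of the other cells, and from the lowest to the highest library Mmp13 spans 56.3-fold, Prg4 16.8-fold and Aldh1a2 16.3-fold.

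The members were also split by Tnmd, itself a gene of the rule, and the values on the sides of the split are a description with no test. Thinned Tnmd RNA was seen in 3, 5, 4 and 11 members by library, 23 in all, and not in 49. On the Tnmd side Thbs4 was at 5388, 2542, 1561 and 1478 CPM, against 233, 990, 1420 and 328 CPM on the other side. Fmod (fibromodulin, a proteoglycan of tendon fibrils) was at 693, 655, 67.3 and 465 CPM, against 8.62, 74.0, 60.9 and 28.1 CPM. Thbs4 is also a gene of the rule, so its level is given without a reading. Fmod was higher on the Tnmd side in all 4 libraries, by little in miR-501KO replicate 1.

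Kera was seen after thinning in 7 of 23 cells with Tnmd and in 1 of 49 without, Fmod in 9 and 4, and Scx in 9 and 11. Besides Tnmd, the genes ranked first by their lead on that side in the library where it was lowest, with 0.5 UMI added to each sum, were Mmp13, Abi3bp (a matrix protein that binds collagen), Myh11, Vat1l, Rrad, Prg4, Kera, Clec11a, Cpxm2, Fbln7 and Igfbp3. Of these, Myh11 was at 0 on both sides in Pax7Cre replicate 1 and miR-501KO replicate 2, and Vat1l in miR-501KO replicate 2, so their place comes from the UMI added to sums of unequal size and they had no lead there. On the side without Tnmd the same rule named Glipr1, Sfrp2, Chrdl1, Plac8, Sfrp1, Aldh1a2, Spon2, Il1rl1, Has1, Peg3, H2ac8 and Pdlim5. Sfrp2 and Sfrp1, which encode secreted inhibitors of Wnt signalling, were seen in 13 and 12 of 49 cells without Tnmd and in 1 and 0 of 23 with it. Plac8 was seen in 14 and 0, Has1, which makes hyaluronan, in 10 and 0, and Peg3, an imprinted zinc finger gene, in 29 and 7. Of 3321 genes with at least 50 CPM on either side, 16 were more than 2-fold higher and 11 more than 2-fold lower on the Tnmd side in all 4 libraries, both with the added UMI and in plain CPM. Myh11 and Vat1l rest on 1 and 3 cells seen after thinning, and with 3 to 11 cells on that side of each library a single cell can set a value. In miR-501KO replicate 2 the cells with Tnmd were also shallower, with a median of 9931 UMIs against 34565, and 5 of its 11 passed the myogenic markers.

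**Figure D3:**
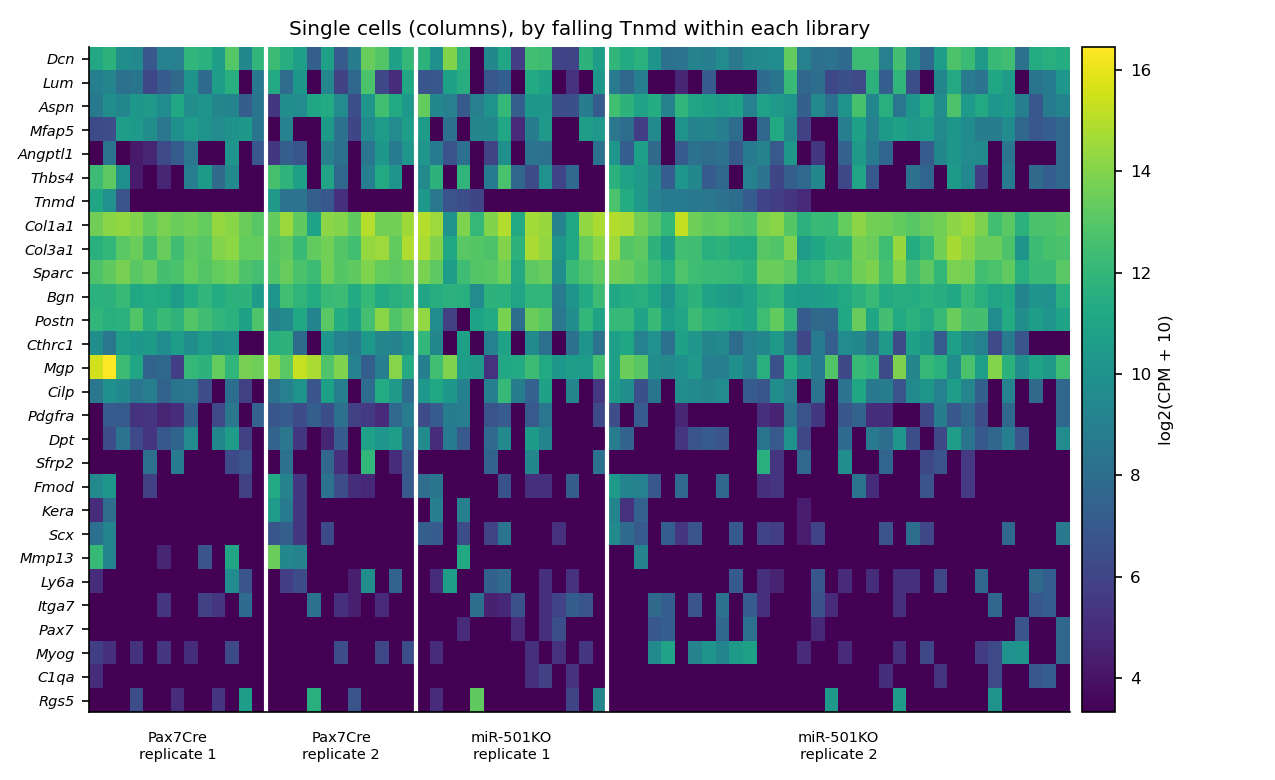
Each column is 1 of the 72 members, grouped by library and ordered by falling Tnmd, each row a gene, and the colour log2(CPM + 10). Collagens, Sparc and Bgn are bright in nearly all columns, Tnmd, Kera, Fmod and Mmp13 in few, and a block of columns in miR-501KO replicate 2 carries Myog with little Lum.

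The genotypes were compared on the summed UMIs of the members of each library with edgeR's quasi-likelihood test. Of 6643 genes tested, 11 passed an adjusted p of 0.05, which is 0.166% of the genes tested. In miR-501KO, 4 rose and 7 fell. At an unadjusted p under 0.05 there were 246 genes (3.7%). Both miR-501KO libraries lay above both Pax7Cre libraries for 1061 genes (16%) and below for 808 (12.2%). With the run as a block, 30 genes passed, all 11 among them. In bulk sums fewer cells of a kind and less RNA per cell cannot be told apart, and here a sum holds 11 to 34 cells, so each call is given with the cells behind it. For 5 of the 11 genes a single cell gave over 50% of the UMIs in both libraries of the genotype where the gene was high.

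Mgp, encoding matrix Gla protein, an inhibitor of calcification made by cartilage, vessels and some fibroblasts, was the gene with a call that every member contributed to. It was at 12739 and 9769 CPM in Pax7Cre and at 2794 and 3234 CPM in miR-501KO. Both miR-501KO libraries lay below both Pax7Cre libraries. The log2 difference was -1.94 ± 0.278 (SE, adjusted p = 0.00443). Mgp UMIs were found in all 72 members, and the median over single cells was 4285 and 8828 CPM in Pax7Cre against 1934 and 1526 CPM in miR-501KO.

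The largest cell held 48.2% of the Mgp UMIs in Pax7Cre replicate 1 and 17.9 to 24.7% in the other libraries. Without the top cell of each library the levels were 7084, 7816, 2315 and 2761 CPM, and the groups still did not overlap. When each cell was thinned to 5000 UMIs so that all weighed the same, Mgp was the only gene of 1100 tested to pass (log2 difference -2.01, adjusted p = 0.000656). Without the members that passed the markers of another class it was -1.97 (adjusted p = 0.018). Mgp did not pass where 4 markers were required (adjusted p = 0.128) or where 1 UMI made a marker seen (adjusted p = 0.0518), with log2 differences of -1.80 and -1.76.

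The difference in Mgp was widest in the cells with Tnmd. On the Tnmd side Mgp was at 49994 and 20424 CPM in the 3 and 5 cells of Pax7Cre and at 3243 and 3494 CPM in the 4 and 11 cells of miR-501KO. On the other side it was at 3350 and 4302 CPM in Pax7Cre and at 2644 and 3164 CPM in miR-501KO. The groups did not overlap on either side, but the gap without Tnmd was small beside the gap with it. Mgp was looked up on both sides after its call was seen, the difference between the sides was not tested, and it rests on 8 cells of Pax7Cre. In myogenic cells Mgp was at 473 to 603 CPM in Pax7Cre and 476 to 659 CPM in miR-501KO, and the groups overlapped.

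**Figure D4:**
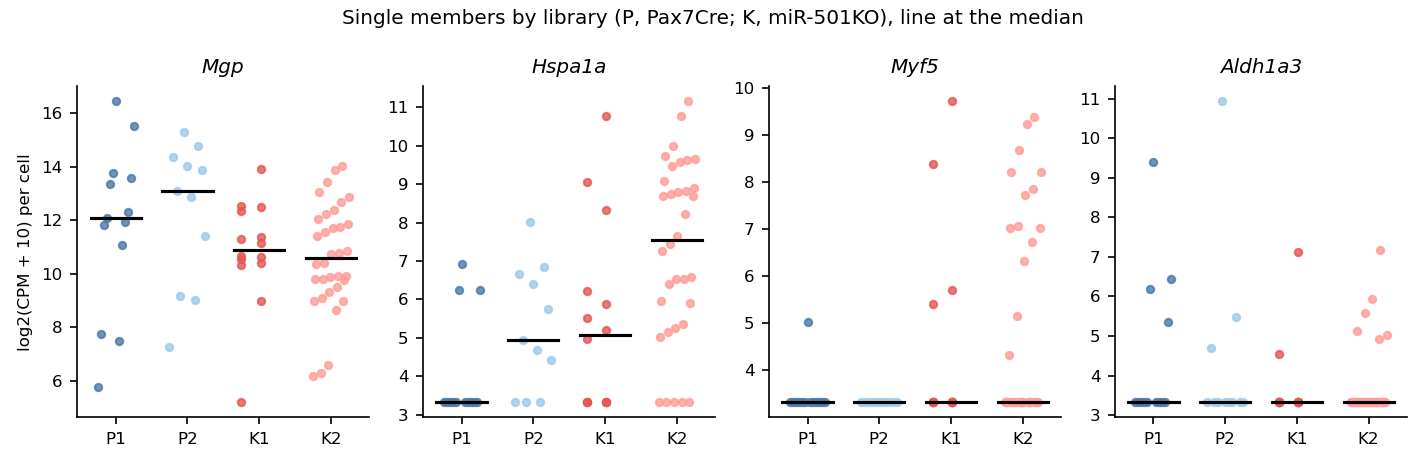
Each point is 1 member, plotted as log2(CPM + 10), by library (P1 and P2, Pax7Cre replicates; K1 and K2, miR-501KO replicates), with a line at the median. Mgp is spread over all members of each library with lower medians in miR-501KO, whereas Aldh1a3 is near the floor in all but a few cells and owes its difference to 1 high cell in each Pax7Cre library.

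Aldh1a3 and Aldh1a2, which both fell, encode enzymes that make retinoic acid. Aldh1a3 was at 136 and 350 CPM in Pax7Cre and at 8.44 and 7.71 CPM in miR-501KO (log2 difference -4.92 ± 0.519, adjusted p = 0.000171). It was seen in 4 and 3 cells of Pax7Cre, and 1 cell held 89.9% and 98.8% of its UMIs. Without the top cells the levels were 16.9, 4.95, 1.78 and 6.01 CPM, and the groups overlapped.

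Aldh1a2 was at 126 and 79.5 CPM in Pax7Cre and at 16.9 and 7.71 CPM in miR-501KO (-3.19 ± 0.459, adjusted p = 0.00443). It had UMIs in 9 and 4 cells of Pax7Cre and in 3 and 5 cells of miR-501KO, with 58.9% and 82.1% of the Pax7Cre UMIs in 1 cell. Without the top cells it was at 55.9, 16.1, 9.09 and 4.03 CPM, so the groups did not overlap. Crabp1, which encodes a binding protein for retinoic acid in the cytoplasm, rose from 68.9 and 50.9 CPM to 240 and 222 CPM (1.89 ± 0.348, adjusted p = 0.0332), in 5, 4, 2 and 12 cells, and without the top cells it was at 27.1, 34.7, 66.6 and 138 CPM.

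Comp, encoding cartilage oligomeric matrix protein, the thrombospondin of tendon and cartilage, was the 1 tenocyte gene called. It was at 68.9 and 200 CPM in Pax7Cre and at 20.3 and 13.5 CPM in miR-501KO (-3.05 ± 0.495, adjusted p = 0.00869). From 2 to 4 cells of each library had UMIs, and 57.5 to 93.9% of them came from 1 cell. The groups did not overlap with those cells or without them, when the levels were 31.4, 13.8, 1.78 and 0.987 CPM.

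The 3 remaining genes that fell were Emb, Bdnf and Srgn. Emb, encoding the cell adhesion protein embigin, was at 108 and 169 CPM in Pax7Cre and 25.3 and 42.4 CPM in miR-501KO, in 5, 7, 5 and 13 cells, with 27.3 to 46.7% of UMIs in the top cell (-2.02 ± 0.394, adjusted p = 0.0467). Bdnf, a neurotrophin, was at 84.4, 67.2, 13.5 and 20.2 CPM in 3, 5, 1 and 5 cells. Srgn, encoding serglycin, the granule proteoglycan of blood cells, was at 55.1, 32.6, 5.07 and 5.79 CPM in 2 or 3 cells a library. Their log2 differences were -2.15 ± 0.417 (adjusted p = 0.0467) and -3.00 ± 0.572 (adjusted p = 0.0441).

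Hspa1a, an inducible heat shock protein gene, rose from 24.1 and 46.9 CPM in Pax7Cre to 184 and 243 CPM in miR-501KO (2.57 ± 0.40, adjusted p = 0.00583), with UMIs in 3, 8, 8 and 29 cells. The groups did not overlap, and without the top cells the levels were 14.8, 41.3, 75.8 and 205 CPM. Without the members that passed another class it was at 4.91, 38.3, 54.8 and 144 CPM and did not pass (adjusted p = 0.77). Hspa1a and its neighbour Hspa1b are near-identical copies, so their split is uncertain, and so is that of the replication-dependent histone gene H2ac24, which rose from 37.9 and 8.15 CPM to 868 and 165 CPM with 72.4 to 95.5% of UMIs in 1 cell (4.36 ± 0.674, adjusted p = 0.00583).

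Myf5, a myogenic transcription factor and a marker of muscle stem cells, was the 4th gene that rose. It was at 1.72 and 0 CPM in Pax7Cre and at 79.4 and 34.7 CPM in miR-501KO, in 1, 0, 4 and 14 cells (adjusted p = 0.00583). Myf5 is 1 of the 7 myogenic markers. In the 2, 3 and 9 members of Pax7Cre replicate 1, miR-501KO replicate 1 and miR-501KO replicate 2 that passed those markers it was at 0, 376 and 225 CPM. In the other members of the 4 libraries it was at 2.33, 0, 2.13 and 6.64 CPM. Without members that passed another class Myf5 was at 2.45, 0, 0 and 7.51 CPM and was too low to be tested.

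**Figure D5:**
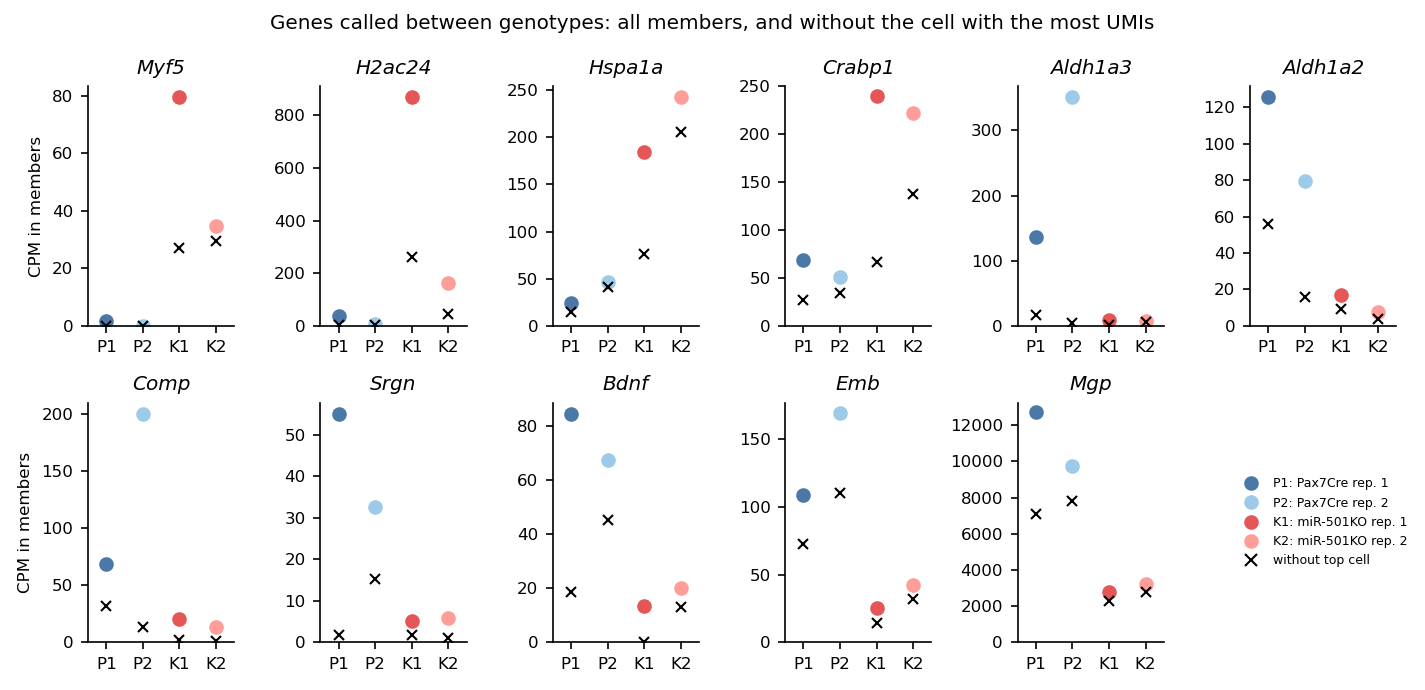
Each panel gives the CPM of 1 called gene in the summed members of each library (coloured points; P1 and P2, Pax7Cre; K1 and K2, miR-501KO), and crosses give the same after the cell with the most UMIs of that gene was left out of each library. Mgp, Emb and Hspa1a keep groups apart without the top cells, and Aldh1a3 does not.

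Matrix gene lists were counted against all genes tested, of which 3295 of 6643 were lower in miR-501KO, with a median log2 difference of 0.00280. Of 10 fibrillar collagen genes 9 were lower, with a median of -0.20, and none passed. Of 19 collagen processing genes 15 were lower (median -0.28), of 17 matricellular genes 13 (median -0.39) and of 6 proteoglycan genes outside the rule 5 (median -0.55), and none passed. These medians moved with the cells and libraries that entered. Without members that passed another class they were -0.020, -0.14, -0.16 and -0.50, and where 4 markers were needed -0.045, -0.11, -0.17 and -0.29, in the same order of lists. Leaving out 1 library at a time, they ran from -0.41 to 0.013 for fibrillar collagens (0.013 without miR-501KO replicate 2), from -0.40 to -0.19 for collagen processing, from -0.57 to -0.28 for matricellular genes and from -0.80 to 0.0071 for proteoglycans (0.0071 without Pax7Cre replicate 2). With every cell thinned to 5000 UMIs the proteoglycan median was -0.018. Cycling genes had a median of 0.10, which became -0.99 without members that passed another class, and muscle differentiation genes -0.06 and -0.84. Spp1, encoding the matricellular protein osteopontin, was at 1825, 546, 289 and 256 CPM and did not pass (adjusted p = 0.0507).

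Scx or Mkx RNA was seen after thinning in 2 of 13 and 2 of 11 members of Pax7Cre and in 7 of 14 and 11 of 34 members of miR-501KO. Both miR-501KO shares were above both Pax7Cre shares, 41.2 ± 8.82% against 16.8 ± 1.40% (mean ± SEM, n = 2), and the exact permutation p was 0.33, the smallest the design allows. In myogenic cells the shares were 15.5 to 19.0% with no such order. Members with at least 2 of 17 cycling genes were 6 of 13, 5 of 11, 3 of 14 and 19 of 34, and the means of 45.8 ± 0.35% and 38.7 ± 17.2% did not differ beyond the spread (exact p = 1). Among myogenic cells the cycling shares were 45.5 to 48.5%.

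The genotype effect in the members was also set against that in the myogenic cells of the same libraries, as a difference of 2 differences in edgeR with the library as a block. Of 14358 genes, 85 passed (0.592%), 43 in the upward and 42 in the downward direction, and 672 had an unadjusted p under 0.05 (4.68%). The filter on low counts used both kinds of sums, so genes near 0 in the members could enter through the myogenic cells. The 85 include Dcn, a gene of the rule, and the myogenic markers Pax7, Myf5, Myog, Cdh15, Chodl and Des. Levels of these genes were partly set by the choice of cells, so they are no independent support. Without the library in the fit 1 gene passed, Aldh1a3. Of the 11 genes called in the members, 7 were among the 85, with Mgp at a difference of -1.97 (adjusted p = 3.78e-14). The fit shared 1 dispersion per gene between sums over 11 to 34 members and sums over 1540 to 2716 myogenic cells, so these p-values rest on a spread set partly by the much larger sums.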

How the data were processed

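Single-cell RNA was measured in 4 libraries made with 10x Genomics 3′ reagents, 2 for each genotype. The authors deposited raw UMI counts for each gene and barcode, made with Cell Ranger (version 6.0.2 per the file headers) on GRCm39 per the submitters' processing notes. No normalization had been applied. The files held 16519 barcodes, with 73665012 to 117527749 UMIs per library.

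Members were found by the rule in the report. The members, gene lists and tests were chosen with earlier results of these data known. UMIs were summed per library over members and, for a comparison, over cells that passed 3 of 7 myogenic markers and no other class. Sums were tested with edgeR 4.0.16 (quasi-likelihood F test, TMM, filterByExpr, Benjamini-Hochberg adjustment) on R 4.3.3. Genes of the rule are given by level only. The text names the 25 leading genes, the top genes of each list, and up to 12 called genes per direction with the largest difference that went the same way in both runs. Shares were compared with exact permutation tests over libraries, after each cell had been thinned to 5000 UMIs. Wilson intervals and zero counts cover counting error only. Levels are UMIs per 1000000 UMIs (CPM) of the summed cells. Errors of shares over libraries are SEM, and errors of log2 differences are SE taken from the edgeR test. The permutation p-values rest on 2 pools of 3 mice per genotype. Those of edgeR rest on a spread between these pools that was partly shared across genes. Scripts used Python 3.11.15. The tests were also tried on sums simulated at the means and dispersions fitted to these data, with 200 of 6643 genes changed. In the members 8.5% of 2-fold, 72.5% of 4-fold and 90% of 8-fold changes were recovered, with 6, 6 and 14 false calls. Most 2-fold changes were thus missed. For the difference from myogenic cells 51% of 4-fold changes were recovered, with 16 false calls. There the myogenic sums were drawn with the dispersions of the members and with no effect shared within a library. The draw also covered 6643 genes rather than the 14358 tested, so this recovery need not hold for the test itself.

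Run numbers in the labels pair the libraries. Across genes the run difference in one genotype correlated with that in the other at -0.16. Replicate libraries of a genotype were distinct, with a chi-square over genes, divided by its degrees of freedom, of 4.30 and 5.31. Alternatives were RLE factors, no filter, DESeq2 1.42.0, the run as a block, other member rules and leaving out each library. The genome at hand was GRCm38, so no gene coordinates are given, and only the miRNA sequences are placed.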

Additional observations from a re-analysis of the deposited data

Results flagged for a closer look

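The genotype effect differed between the members and myogenic cells for 85 genes by edgeR's test of the difference itself, and for 1 gene, Aldh1a3, without the library in the fit. The genes named below had the largest differences among those that passed, leaving out genes of the member rule, and values are log2 differences of the genotype effect, members minus myogenic cells.

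Upward, the genes with a fold were Chrna1 (2.96) and Cdh15 (2.90). The other 10 held 0 to 3 UMIs in the Pax7Cre members of both libraries together, so no fold is given for them. Such genes could pass the filter on low counts through the myogenic sums, so their p-values are listed without a reading. Iqsec3, Cdh13 and Pax7 were at 0 in the Pax7Cre members, with edgeR adjusted p of 1.4e-05, 0.0183 and 0.0331. For Myf5, Ank1 and Stbd1 the edgeR adjusted p were 8.89e-12, 0.000421 and 0.00192, for Asb5 and Met 0.00199 and 0.0226, and for Actn3 and Plxna2 0.0382 and 0.0141. Chrna1, a subunit of the muscle acetylcholine receptor, was at 5.16 and 6.11 CPM in Pax7Cre members and at 33.8 and 50.1 CPM in miR-501KO members, far below the 345 to 410 CPM of myogenic cells. Without the 22 members that passed another class (myogenic, mural or macrophage), none of the 12 upward genes passed. Chrna1 was then 0.29 and Cdh15 -0.45, both with an edgeR adjusted p of 1, and Actn3 was also negative. Of the 12 downward genes 9 passed without those members, and all 12 kept their direction.

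Downward, the genes were Aldh1a3 (-5.24), Cxcl5 (-3.53), Cp (-2.74), Ccn5 (-2.64), Chodl (-2.35), Svep1 (-2.32), Tnfrsf21 (-2.24), Ccn2 (-2.23), Bdnf (-2.06), Emb (-2.04) and Mgp (-1.97). Chodl is also a marker of the myogenic class, as are Cdh15, Pax7 and Myf5 among the upward genes. Areg was near the floor, at 6.89 and 8.15 CPM in Pax7Cre members and at 0 UMIs in the miR-501KO members (edgeR adjusted p = 0.0416). Its call was lost with at least 2000 UMIs per cell (edgeR adjusted p = 0.225) and where 4 markers were needed (edgeR adjusted p = 0.12). Ccn2, encoding connective tissue growth factor, was at 656 and 210 CPM in Pax7Cre members and 171 and 71.3 CPM in miR-501KO members, and at 6.78 to 12.1 CPM in myogenic cells. Svep1, encoding a large adhesion protein of the matrix, was at 124 and 114 CPM and at 64.2 and 21.2 CPM. Groups of 2 libraries are too small for a test of single outlying samples.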

How the results depend on the processing

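Of the 11 genes called between genotypes in the members, all 11 kept their direction under each alternative in which they could be tested. The number called was 65 without a filter on low counts, 30 with the replicate block for the run, 22 without the condition on Cd74, 7 with DESeq2, 6 without the limit on mitochondrial UMIs, 5 where 1 UMI made a marker seen, 4 without members that passed another class and 1 where 4 markers were needed. Leaving out each library in turn gave 52 to 83, where the lone library of a group was assumed to vary like the other group. With every cell thinned to 5000 UMIs, an alternative chosen after seeing the data, 1 gene was called. For the difference from myogenic cells the 85 calls became 1 with no replicate block, 20 with DESeq2, 46 with 4 markers, 54 without members that passed another class and 128 without the condition on Cd74, and 49 to 92 when each library was left out. Without members that passed another class Actn3 (-0.26) and Cdh15 (-0.45) reversed.

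The difference in the cycling share was -7.15 percentage points and reversed where 1 UMI made a marker seen (5.81) and without thinning (4.82). It was -26.8 where 4 markers were needed and -27.3 without members that passed another class, both with groups apart at the smallest exact p that the design allows (0.33). Leaving out each replicate number gave -24.7 to 10.4 for the cycling share, 14.2 to 34.6 for Scx or Mkx and 0.0931 to 1.0 for the member share. The replicate block, as the mean difference within runs, left the 3 shares at 0.548, 24.4 and -7.15 points. The causes of these changes were not tested. The shares rest on 11 to 34 members a library, which sets their counting intervals.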
